A study of Rattus norvegicus with 49 samples.

Results

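Nrep, Slpi and Pacs2 are 3 genes of the rat whose mRNA level differed from controls in both kidney and liver at the highest dose of propylene glycol phenyl ether. They were chosen by the measured difference between 1000 and 0 mg/kg in each organ, so their values in that contrast are given as a description and carry no test. They are 3 of 14217 genes measured, and 4 of 31042 probe sets on the array name them. Nrep has the probe set 1371412_a_at, Slpi has 1367998_at, and Pacs2 has 1389313_at and 1384895_at. On the rat assembly GRCr8, RefSeq places Nrep (gene 338475, also called P311) at chr18:25291219-25320742, Slpi (gene 84386) at chr3:173501573-173503822, and Pacs2 (gene 691631) at chr6:137918040-137977767. RefSeq also lists the pseudogenes Slpi-ps1 and Slpi-ps2 on chromosome 3. Whether the Slpi probe set also takes up RNA of these copies was not tested.

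The study measured gene expression in 49 organ samples of male Harlan Sprague Dawley rats, 1 Affymetrix Rat Genome 230 2.0 array per sample. The rats received the compound in corn oil by gavage on 5 days at 1, 10, 100, 500 or 1000 mg/kg per day, and the controls are the 0 mg/kg groups. All rats were on the NTP-2000 diet and were 6 to 8 weeks old when assigned to groups. The kidney groups held 5, 4, 4, 4, 3 and 4 arrays in order of dose, and the liver groups held 5, 4, 4, 4, 4 and 4. The sample labels name propylene glycol phenyl ether, whereas the dosing text of the labels names MCHM. Rats given 2000 mg/kg were killed early and gave no tissue. The labels call the samples biological replicates and do not say whether a kidney and a liver came from the same rat. In every liver array all 10 hepatocyte markers were higher than in any kidney array, and in every kidney array all 10 tubule markers were higher than in any liver array. Medians of the arrays lay between 5.33 and 5.37 in kidney and between 5.21 and 5.31 in liver on the log2 scale. All levels below are log2 values made with RMA, in which 1 unit is a doubling, and they are compared only within an organ and a probe set.

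The 3 genes have no shared textbook pathway. Nrep encodes a small intracellular protein known from regenerating neurons, smooth muscle and myofibroblasts, where it promotes translation of the TGF-beta ligands through the initiation factor subunit Eif3b. Slpi encodes a secreted inhibitor of elastase and cathepsin G from the WFDC family, made by epithelia and by macrophages, which also restrains inflammatory signalling. Pacs2 encodes a cytosolic sorting adaptor that handles cargo such as polycystin-2 and that holds the endoplasmic reticulum close to mitochondria. In liver and kidney such contact sites pass lipids and calcium between the organelles.

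At 1000 mg/kg, limma called 220 of 14217 genes in kidney (1.55%; 0.506% higher and 1.04% lower) and 149 in liver (1.05%; 0.739% higher and 0.309% lower) at a Benjamini-Hochberg adjusted p under 0.05. These shares are given for scale, since the members were chosen from these calls. The genes called in both organs numbered 7, which is 3.18% of the kidney calls and 4.70% of the liver calls. Of these, 4 were lower in both organs (Nrep, Slpi, Cdk1 and Cdkn3), 2 were higher in both (Aldh1l1 and Gsta3), and Pacs2 was lower in kidney and higher in liver. The adjusted limma p-values that chose Nrep were 0.00363 in kidney and 0.000142 in liver. For Slpi they were 0.0218 and 0.0341, and for Pacs2 they were 0.0300 and 0.0444, close to the threshold. Just outside it were Ccna2, a cyclin of DNA synthesis (larger adjusted limma p 0.0574), Gstp1, a glutathione transferase (0.0599), and Dhrs1, a reductase (0.0599). Dhrs1 shared the pattern of Pacs2, with a difference from controls of -0.21 in kidney and 0.36 in liver. The count of the 3 members past the threshold was sensitive to single arrays. It dropped to 1 in kidney without control replicate 2 or 3 or without replicate 1 or 3 of 1000 mg/kg, and to 1 in liver without control replicate 1 or 4 or without replicate 1, 2 or 3 of 1000 mg/kg. These and the following refits reuse the arrays that chose the members, so they describe the choice and do not test it. Nrep stayed past the threshold when any 1 array of the 0 or 1000 mg/kg groups was left out, 9 times of 9 in each organ. Its kidney call was lost when the 0 and 1000 mg/kg groups were fitted alone (adjusted limma p 0.0524), and Pacs2 was lost in both organs under quantile normalization (adjusted limma p 0.0832 in kidney and 0.0552 in liver). With the mean of both Pacs2 probe sets the liver difference was 0.23, and the adjusted limma p was 0.101 in kidney and 0.376 in liver. Among the alternatives that kept every array, Pacs2 passed 5 times of 9 in kidney and 4 times of 9 in liver.

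**Figure D1:**
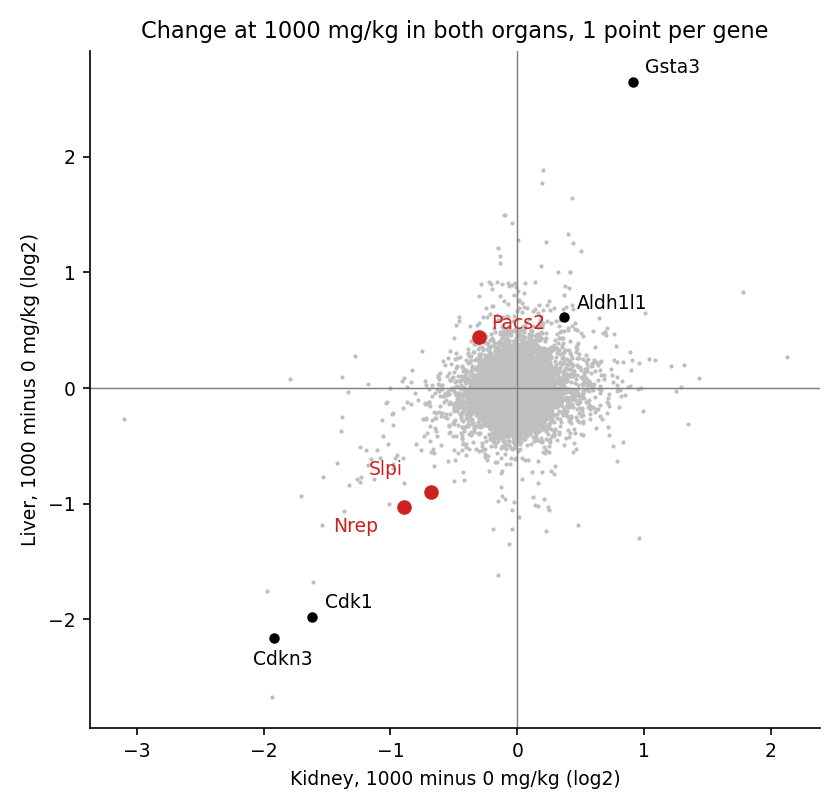
Each grey point is 1 gene, with its mean at 1000 mg/kg minus its mean at 0 mg/kg in kidney (horizontal, log2) and in liver (vertical, log2); red points are Nrep, Slpi and Pacs2, and black points are the other 4 genes called in both organs. Nrep and Slpi lie in the lower left quadrant near -0.89 and -1.03 and near -0.68 and -0.90, and Pacs2 lies in the upper left near -0.31 and 0.44.

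Nrep was lower at 1000 mg/kg than in controls by 0.89 in kidney (1.85-fold) and by 1.03 in liver (2.04-fold), and at 500 mg/kg its mean already lay below those of all smaller doses in both organs. In kidney the 5 controls read 10.95, 10.75, 11.50, 10.99 and 10.49, a mean of 10.93 ± 0.37 (SD). The arrays of 1 mg/kg read 10.76, 10.85, 10.68 and 11.14, those of 10 mg/kg read 10.64, 10.90, 10.33 and 10.96, and those of 100 mg/kg read 10.80, 10.62, 10.63 and 10.95. All but 1 of these 12 arrays, at 10.33, lay within the range of the controls. The 3 arrays of 500 mg/kg read 10.46, 10.43 and 10.58, a mean of 10.49 ± 0.08 (SD), and those of 1000 mg/kg read 9.97, 10.04, 9.78 and 10.39, a mean of 10.04 ± 0.25 (SD). The 500 mg/kg arrays straddled the lowest control, and all 4 arrays of 1000 mg/kg lay below every control and below every array of 500 mg/kg.

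In liver the Nrep controls read 11.73, 12.07, 11.83, 11.98 and 11.63, a mean of 11.85 ± 0.18 (SD). The arrays of 1 mg/kg read 11.74, 12.05, 11.61 and 11.68, and those of 10 mg/kg read 11.88, 11.91, 11.82 and 11.90. Up to this dose the liver groups overlapped throughout. The arrays of 100 mg/kg read 11.50, 11.68, 11.69 and 11.48, a mean of 11.59 ± 0.11 (SD), those of 500 mg/kg read 11.11, 11.51, 11.57 and 11.45, a mean of 11.41 ± 0.21 (SD), and those of 1000 mg/kg read 10.82, 10.47, 10.66 and 11.30, a mean of 10.81 ± 0.35 (SD). All 4 arrays of 500 mg/kg and all 4 of 1000 mg/kg lay below every control, although replicate 4 of 1000 mg/kg, at 11.30, lay above replicate 1 of 500 mg/kg, at 11.11. In order of mean level the liver groups ran 10, 0, 1, 100, 500 and 1000 mg/kg, and the first 3 differed by less than their spread.

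The fit that chose Nrep, Slpi and Pacs2 took its spread from all dose groups of an organ. Small spread at the other doses could favour the choice of a gene, so tests there are not fully independent of it. The comparison of 500 mg/kg with the pooled 1, 10 and 100 mg/kg groups uses no array of the groups whose means chose Nrep. The difference was -0.28 in kidney (95% interval -0.54 to -0.03; 1.22-fold) and -0.34 in liver (-0.53 to -0.15; 1.26-fold). A two-sided exact permutation test over arrays gave p = 0.0484 in kidney, where 0.00220 is the smallest p the design allows, and p = 0.00495 in liver, where 0.000549 is the smallest. Neither passed after adjustment over all 31042 probe sets, with an adjusted limma p of 0.9996 in each organ. In this comparison limma called 0 probe sets in each organ, a percentage called of 0, while 4.29% of probe sets in kidney and 4.16% in liver had an unadjusted p under 0.05. Over the doses 1 to 500 mg/kg alone, Nrep changed per dose step by -0.10 in kidney (-0.19 to -0.01) and by -0.14 in liver (-0.22 to -0.06), with unadjusted limma p-values of 0.0311 and 0.00196 and adjusted ones of 0.9997 and 0.991. For the slope limma called 0 probe sets in each organ, while 3.45% in kidney and 4.60% in liver had an unadjusted limma p under 0.05. The change at 500 mg/kg did not differ detectably between the organs, with a difference of 0.06 and a 95% interval from -0.25 to 0.37.

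**Figure D2:**
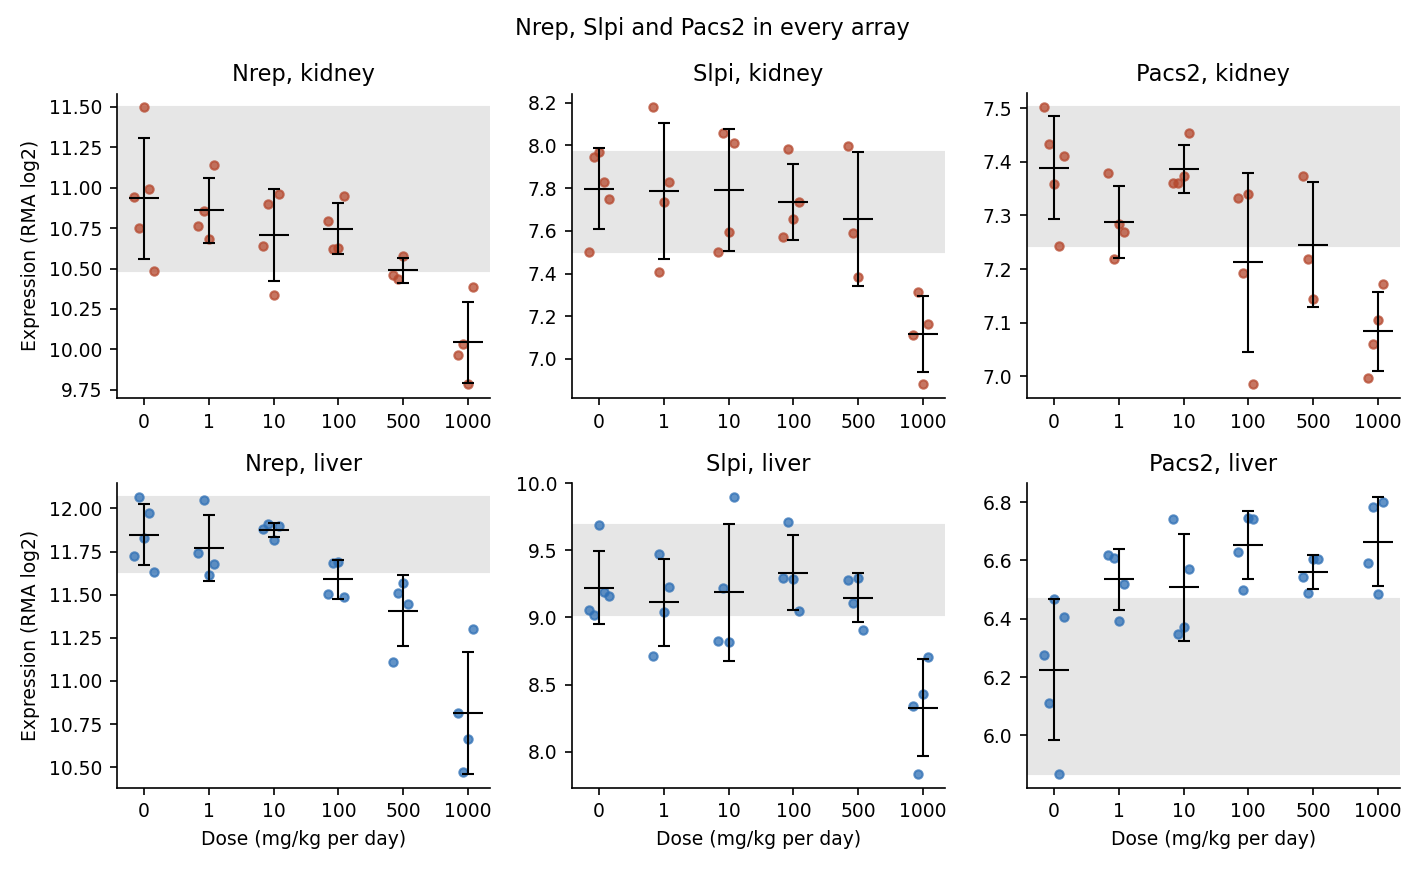
Each point is 1 array, with dose on the horizontal axis and the RMA log2 level on the vertical axis, for Nrep (1371412_a_at), Slpi (1367998_at) and Pacs2 (1389313_at) in kidney (top) and liver (bottom); black bars are the group mean and SD, and the grey band is the range of the 5 controls. All 4 arrays at 1000 mg/kg lie outside the band in each panel, below it for Nrep and Slpi, and for Pacs2 below it in kidney and above it in liver.

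Slpi stood apart from controls at 1000 mg/kg and overlapped them at every smaller dose. At 1000 mg/kg it was lower by 0.68 in kidney (1.60-fold) and by 0.90 in liver (1.86-fold). In kidney the controls read 7.50, 7.95, 7.97, 7.83 and 7.75, a mean of 7.80 ± 0.19 (SD). The 15 arrays from 1 to 500 mg/kg surrounded them: 8.18, 7.41, 7.73 and 7.83 at 1 mg/kg, 7.50, 8.06, 7.59 and 8.01 at 10 mg/kg, 7.57, 7.98, 7.65 and 7.73 at 100 mg/kg, and 8.00, 7.59 and 7.38 at 500 mg/kg. Of these, 2 lay below every control and 5 lay above. The arrays of 1000 mg/kg read 7.11, 7.31, 6.88 and 7.17, a mean of 7.12 ± 0.18 (SD). All 4 were below every other kidney array, the nearest being replicate 3 of 500 mg/kg.

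In liver the Slpi controls read 9.06, 9.02, 9.69, 9.19 and 9.16, a mean of 9.22 ± 0.27 (SD). The arrays read 8.71, 9.47, 9.04 and 9.23 at 1 mg/kg, 8.82, 9.22, 8.81 and 9.90 at 10 mg/kg, 9.29, 9.71, 9.29 and 9.05 at 100 mg/kg, and 9.28, 9.11, 9.30 and 8.91 at 500 mg/kg. These groups overlapped fully, and of the 16 arrays 4 lay below every control and 2 above. The arrays of 1000 mg/kg read 8.34, 7.83, 8.43 and 8.70, a mean of 8.33 ± 0.36 (SD). All 4 were below every other liver array, but replicate 4 of 1000 mg/kg, at 8.70, was next to replicate 1 of 1 mg/kg, at 8.71. The Slpi group means up to 500 mg/kg differed by less than their spread in both organs.

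Away from the contrast that chose it, Slpi showed no detectable difference. At 500 mg/kg against 1, 10 and 100 mg/kg it was -0.11 in kidney (95% interval -0.45 to 0.22; exact permutation p = 0.501) and -0.06 in liver (-0.43 to 0.31; exact permutation p = 0.741). The slope per dose step was -0.04 in kidney (-0.16 to 0.07) and 0.03 in liver (-0.11 to 0.16). The difference between the organs was -0.05 (-0.57 to 0.47). The intervals at 500 mg/kg leave room for a decrease of up to 0.45 in kidney and 0.43 in liver.

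By 1 of its 2 probe sets, Pacs2 differed from controls in opposite directions in the organs. At 1000 mg/kg its probe set 1389313_at was lower by 0.31 in kidney (1.24-fold) and higher by 0.44 in liver (1.36-fold), smaller than the differences of Nrep and Slpi. In kidney the controls read 7.50, 7.43, 7.36, 7.24 and 7.41, a mean of 7.39 ± 0.10 (SD), and the arrays of 1000 mg/kg read 7.0, 7.06, 7.10 and 7.17, a mean of 7.08 ± 0.07 (SD). Those groups did not overlap. Between them, the arrays read 7.38, 7.22, 7.28 and 7.27 at 1 mg/kg, 7.36, 7.36, 7.37 and 7.45 at 10 mg/kg, 7.33, 7.19, 7.34 and 6.99 at 100 mg/kg, and 7.37, 7.22 and 7.15 at 500 mg/kg. Of these 15 arrays 5 lay below every control and 0 above, and replicate 4 of 100 mg/kg, at 6.99, was the lowest kidney array of all.

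In liver the 5 controls of Pacs2 1389313_at were widely spread, at 6.28, 6.11, 6.47, 5.87 and 6.41, a mean of 6.23 ± 0.24 (SD). The arrays read 6.62, 6.61, 6.39 and 6.52 at 1 mg/kg, 6.74, 6.35, 6.37 and 6.57 at 10 mg/kg, 6.63, 6.50, 6.75 and 6.74 at 100 mg/kg, 6.54, 6.49, 6.61 and 6.61 at 500 mg/kg, and 6.59, 6.78, 6.48 and 6.80 at 1000 mg/kg. Of the 20 arrays with compound, 17 lay above every control, among them 13 of the 16 at 1 to 500 mg/kg, and the treated groups overlapped one another. How many of all probe sets were separated from the liver controls in this way was not counted. Limma called 0%, 0.00322%, 0% and 0.0129% of all probe sets in liver at 1, 10, 100 and 500 mg/kg. At the same doses 7.82%, 7.58%, 7.53% and 8.29% of probe sets in liver had an unadjusted limma p under 0.05. Against the controls the differences were 0.31, 0.28, 0.43 and 0.33 at those doses. Two-sided exact permutation tests gave p = 0.0476, 0.111, 0.0159 and 0.0317, where 0.00794 is the smallest the design allows, and the adjusted limma p-values were 0.522, 0.576, 0.489 and 0.382. None of the doses passed after adjustment. All 4 comparisons share the 5 control arrays with each other and with the contrast that chose the gene, so they are not independent of it. Leaving out control replicate 4, the lowest at 5.87, brought the difference at 1000 mg/kg from 0.44 to 0.35.

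Comparisons among treated arrays, which are free of those controls, showed no detectable difference for Pacs2 1389313_at. At 500 mg/kg against 1, 10 and 100 mg/kg it was -0.05 in kidney (95% interval -0.21 to 0.11; exact permutation p = 0.530) and -0.01 in liver (-0.17 to 0.16; exact permutation p = 0.939). The slopes per dose step were -0.03 in kidney (-0.09 to 0.03) and 0.02 in liver (-0.04 to 0.09), and the organs differed by -0.04 (-0.27 to 0.18).

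The second Pacs2 probe set, 1384895_at, followed the first in kidney by direction only and did not follow it in liver. In kidney its mean was 4.81 ± 0.37 (SD, n = 5) in controls and 4.48 ± 0.25 (SD, n = 4) at 1000 mg/kg, a difference of -0.33, with 1 of 4 arrays, replicate 1, below every control. Without that array the difference was -0.20. In liver it was 4.18 ± 0.35 (SD, n = 5) in controls and 4.20 ± 0.17 (SD, n = 4) at 1000 mg/kg, a difference of 0.02, with all 4 arrays inside the range of the controls. All array medians lay at 5.21 or above, so this probe set sat below the median of its arrays, where RMA values hold an unknown share of background. At 500 mg/kg against 1, 10 and 100 mg/kg it differed by -0.12 in kidney (exact permutation p = 0.297) and by 0.02 in liver (exact permutation p = 0.894). The liver difference of Pacs2 rested on 1 of 2 probe sets.

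**Figure D3:**
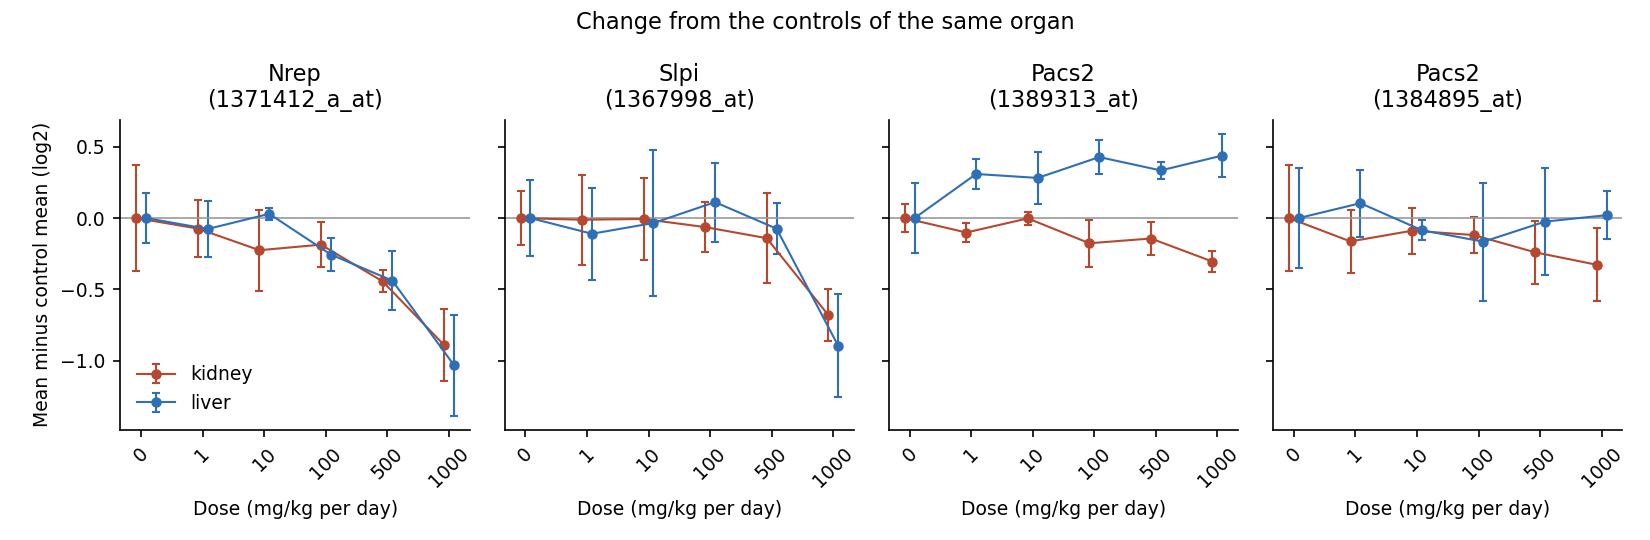
The group mean minus the control mean of the same organ (log2, vertical axis) is plotted against dose for the 4 probe sets, with kidney in red, liver in blue and bars for the SD of the arrays in that group. Nrep is lowest at 1000 mg/kg, at -0.89 in kidney and -1.03 in liver, Slpi is lowest at 1000 mg/kg, at -0.68 and -0.90, and Pacs2 1389313_at in liver lies between 0.28 and 0.44 at every dose, which 1384895_at does not share.

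Outside the contrast that chose the genes, 52 limma tests of the 4 probe sets were made over doses, slopes and organs, and 0 passed at an adjusted p under 0.05, with 0.335 the lowest, for Nrep in liver at 500 mg/kg against 0 mg/kg (4 probe sets in all, 0.0129%, were called there, and 0.00322% in kidney). That difference was -0.44 (exact permutation p = 0.0159, all 4 arrays below all 5 controls), and in kidney it was -0.44 as well (exact permutation p = 0.0893). Both share their controls with the contrast that chose Nrep. At 500 against 0 mg/kg, 8.29% of probe sets in liver and 4.61% in kidney had an unadjusted limma p under 0.05. There were 40 exact permutation tests in all, and their p-values are unadjusted.

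Promoter sequence was at hand for Nrep and Pacs2. In the 300 bases from 250 before to 50 after the RefSeq start, 6 short motifs were searched on both strands, none of which overlapped another match. Nrep had 0 matches to any of them. Pacs2 had 2 matches to the box CCAAT bound by NF-Y, which 37.5% of 33469 rat promoters of that length hold. It had 4 matches to the Sp1 box GGGCGG, held by 33.1% of promoters, and 1 match to the antioxidant element core TGACNNNGC, held by 12.1%. It had 0 matches to the box TATAAA of the basal machinery, held by 14.2%, to the AP-1 element TGANTCA, held by 7.33%, and to the E-box CACGTG, held by 6.42%. The Pacs2 sequence is shown because this gene alone of the 3 ran in opposite directions in the organs, by 1 of its 2 probe sets. It is the plus strand of chr6:137917801-137918050 (GRCr8, RefSeq), the 250 bases before the start of the promoter table at base 137918051. The gene span above begins at base 137918040, so the last 11 bases shown lie inside it, and positions are counted from the start of the promoter table. The printed run has the CCAAT and GGGCGG matches of either strand in capitals.
Pacs2 promoter: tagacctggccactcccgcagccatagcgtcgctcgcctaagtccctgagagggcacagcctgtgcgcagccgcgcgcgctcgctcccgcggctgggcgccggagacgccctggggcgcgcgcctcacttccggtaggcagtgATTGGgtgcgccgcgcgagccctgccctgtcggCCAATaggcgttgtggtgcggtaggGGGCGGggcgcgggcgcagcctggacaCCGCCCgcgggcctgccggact
The CCAAT matches lie at -107 to -103 and at -74 to -70 from the start, on opposite strands, and 2 of the GGGCGG matches lie at -49 to -44 and at -22 to -17. The other GGGCGG matches and the TGACNNNGC match lie after the start. The sequence is 74.8% G or C and holds no TATAAA. A match is a stretch of letters and was not tested as a binding site.

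The Pearson correlation of the levels of Nrep and Slpi was 0.68 over the 24 kidney arrays and 0.70 over the 25 liver arrays, which include the 0 and 1000 mg/kg arrays that chose both genes as lower. After the dose group means were taken off, it was 0.26 in kidney and 0.39 in liver. The levels of Nrep and Pacs2 correlated at 0.47 in kidney and -0.42 in liver, and those of Slpi and Pacs2 at 0.57 and -0.21. Without the group means, Pacs2 lay between -0.14 and 0.17 with either gene in both organs. Arrays of an organ share a normalization and a dose design, and the values are descriptions.

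The genes most like each member were ranked by the smaller of their kidney and liver correlations. The ranking ran over the 14217 genes without those whose symbol starts with LOC, RGD, MGC or AABR. The ranking on levels includes the 0 and 1000 mg/kg arrays that chose the members, so genes that differ at 1000 mg/kg rank high by construction, and the ranking on deviations from the dose means leaves that difference out. For Nrep these were Cdk1, the kinase of mitotic entry (0.70), its cyclin partner Ccnb2 (0.68), Slpi (0.68), Tmem144 (0.65) and Igfals, which carries insulin-like growth factors in blood (0.65). Running opposite to Nrep were the glutathione transferase Gsta3 (-0.75), the squalene synthase Fdft1 (-0.74) and Mccc2, an enzyme of leucine breakdown (-0.72). On deviations from the dose means, the genes most like Nrep were Nfe2l2, the transcription factor of the antioxidant response (0.61), Myrf (0.57), Irf2bp2 (0.56), Prpf38a (0.55) and Cmtm6 (0.55). The top genes on levels did not recur on deviations.

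For Slpi the genes most alike after Nrep were Csf1r, the receptor of macrophage growth factor (0.68), the leukocyte actin bundler Lcp1 (0.67), the dendritic cell lectin Clec9a (0.67) and the Fc receptor chain Fcer1g (0.66). Opposite ran Ehhadh, an enzyme of peroxisomal fat oxidation (-0.73), Mccc2 (-0.70) and Fbxo31 (-0.66). On deviations from the dose means Slpi was most like Axl, a receptor kinase of phagocytes (0.64), Arhgap25 (0.61), Phlda3 (0.58), Ly86 (0.58) and C3h15orf48 (0.58). None of the 5 was among the genes most like Slpi on levels. For Pacs2 the likeness was lower: Ginm1 (0.56), Chpf2 (0.53), Atp6v0a1, a subunit of the vacuolar proton pump (0.53), Txndc9 (0.50) and Tepsin, an accessory protein of a sorting adaptor (0.50). Opposite to Pacs2 ran Vsig10l (-0.60), Gng7 (-0.60) and Naglt1 (-0.49). On deviations it was most like Cystm1 (0.56), the Golgi fusion protein Stx5 (0.54), Pld3 (0.51), Stard5 (0.50) and Mcrs1 (0.48).

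Genes around the members were counted at 1000 mg/kg from lists drawn up with earlier results of these data known. Over all genes, limma called 1.55% in kidney and 1.05% in liver at this dose. At those shares a list of this length holds few or no calls, so a count of 0 does not set it apart. For Nrep, 0 of 17 measured TGF-beta ligands and receptors and 0 of 11 signal carriers, Eif3b included, passed in either organ. Of 21 targets of TGF-beta and myofibroblast genes, 2 passed in kidney. The elastic fibre protein Mfap4 fell by 1.39 (adjusted limma p 0.0127) and the matrix glycoprotein Sparc fell by 0.42 (adjusted limma p 0.0272). In kidney 18 of the 21 were lower than in controls, with a median difference of -0.19 against -0.02 over all genes. In liver 0 passed, 16 of 21 were lower, and the median was -0.14 against 0.02. The kidney count was 0 without replicate 3 of 1000 mg/kg, 1 without replicate 1 or 2 of that dose or control replicate 2, 3 or 4, and 4 without control replicate 5. For Slpi, 0 of 9 WFDC family genes, 0 of 10 targets and partners and 0 of 15 other protease inhibitors passed in either organ, with medians of 0.07, -0.01 and 0.04 in kidney and -0.08, -0.04 and 0.00 in liver. For Pacs2, 0 of 27 sorting and contact site genes passed in either organ, with medians of -0.01 and 0.04, and 14 of 27 lower in kidney and 20 of 27 higher in liver. In liver the mean of these 27 genes minus its control mean was above every control in every array with compound. It lay between 0.02 and 0.081 at 1000 mg/kg and between 0.035 and 0.103 at 1 mg/kg, against -0.015 to 0.012 in controls. In kidney the ranges of 1000 mg/kg (-0.05 to 0.038) and controls (-0.031 to 0.034) overlapped.

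Markers of other cells moved at 1000 mg/kg beside the members, and the counts below stand against 1.55% of all genes called in kidney and 1.05% in liver. In kidney all 10 fibroblast markers were lower and 1 fell, Mfap4, a count that was 0 without replicate 3 of 1000 mg/kg and 2 without control replicate 5. The mean of these markers minus its control mean lay between -0.55 and -0.33 in the arrays of 1000 mg/kg, against -0.19 to 0.19 in controls. In liver 6 of 10 were lower and 0 fell (1 without control replicate 1), and the range of 1000 mg/kg, -0.17 to 0.03, lay inside that of controls, -0.20 to 0.22. Macrophage markers were lower for 8 of 9 in each organ. In kidney 1 passed, Adgre1, which fell by 0.80 (adjusted limma p 0.0218), and the mean lay between -0.29 and -0.15 at 1000 mg/kg against -0.07 to 0.08 in controls. The count was 0 without control replicate 2 or replicate 2 or 3 of 1000 mg/kg, and 2 without control replicate 5. In liver 0 fell, and the range of -0.29 to -0.06 overlapped that of controls, -0.15 to 0.12. Of the 10 dividing cell markers, 9 fell in kidney and 2 in liver, and all 10 were lower in both, with the mean between -1.83 and -1.15 in kidney and between -1.30 and -1.08 in liver. Controls lay between -0.25 and 0.37 in kidney and between -0.40 and 0.37 in liver. In kidney this mean was already below every control at 100 mg/kg (-0.97 to -0.28) and at 500 mg/kg (-1.09 to -0.69). In liver the 500 mg/kg arrays, at -0.63 to 1.46, overlapped the controls. The liver count was 1 when any 1 array of either group other than control replicate 4 was left out. Of 8 neutrophil markers 0 fell in either organ. Of 9 lymphocyte markers Klrg1 alone fell by 0.75 in liver (adjusted limma p 0.0341), and 0 fell in kidney. The Klrg1 call was lost with the replicate number as a block, without any 1 of the 5 controls, and without replicate 1, 3 or 4 of 1000 mg/kg. Of the epithelial, adipocyte, hepatocyte, tubule and mesothelium lists 0 members passed in either organ. In kidney 7 of 10 tubule markers were lower. Their mean minus its control mean lay between -0.174 and -0.041 at 1000 mg/kg, below every control (-0.036 to 0.061). It was also below every control at 10 and 500 mg/kg, and overlapped the controls at 1 and 100 mg/kg. In liver 9 of 10 hepatocyte markers were lower, and their mean (-0.189 to -0.035) overlapped that of controls (-0.091 to 0.112). Of 10 urothelium and duct epithelium markers, 9 were higher in kidney, with a median of 0.15 against -0.02 over all genes. In liver 7 of the 10 were higher, with a median of 0.08 against 0.02. The kidney list mean lay between 0.01 and 0.42 at 1000 mg/kg, which overlapped the controls, at -0.24 to 0.22. The part of these shifts in the levels of Nrep, Slpi and Pacs2 was not tested, and in whole organs fewer cells of a type and less RNA per cell cannot be told apart.

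**Figure D4:**
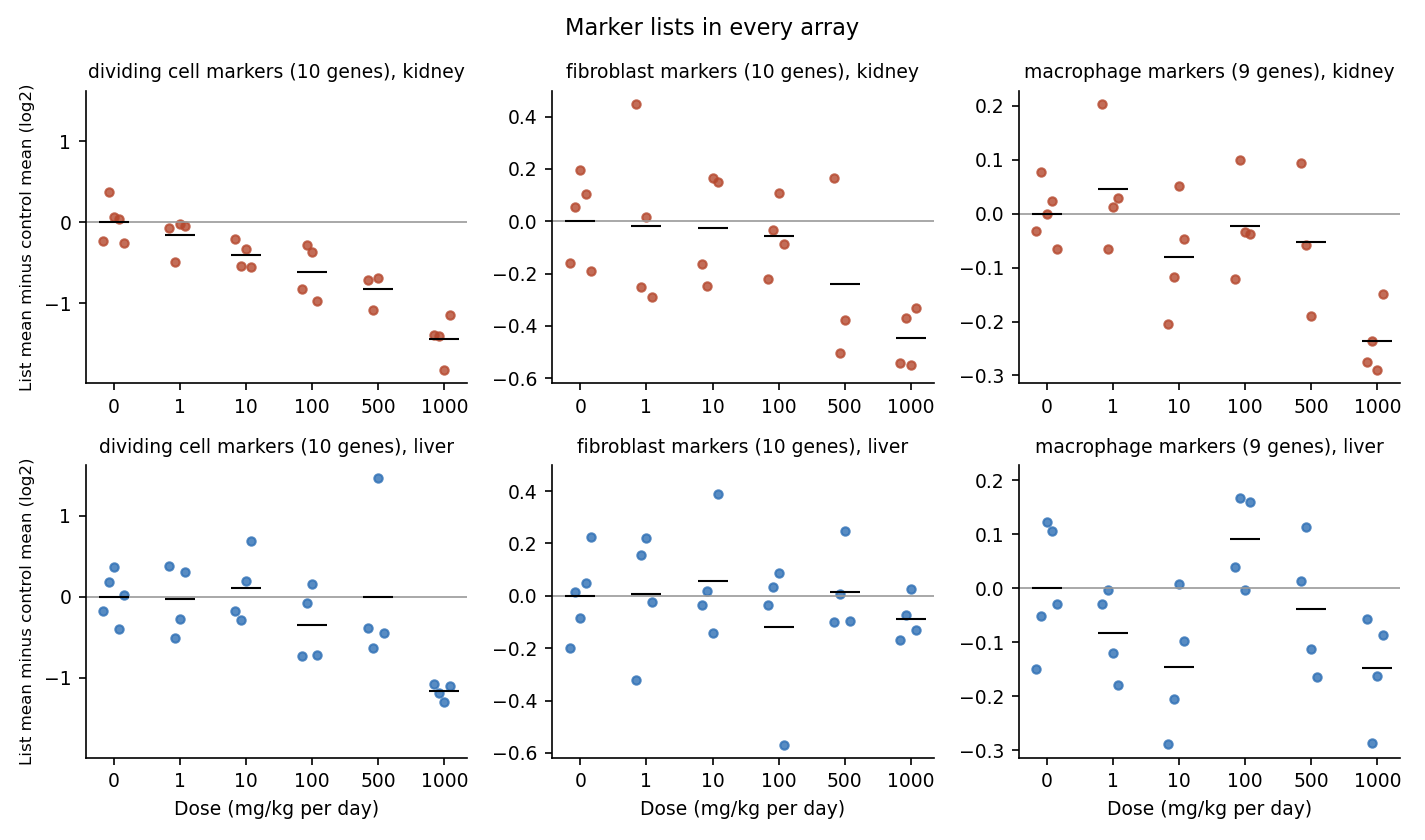
Each point is 1 array, with dose on the horizontal axis and the mean log2 level of a marker list minus its control mean on the vertical axis, for dividing cells, fibroblasts and macrophages in kidney (top) and liver (bottom); black bars are group means. At 1000 mg/kg the dividing cell markers lie between -1.83 and -1.15 in kidney and between -1.30 and -1.08 in liver, and the fibroblast markers leave the control range in kidney but not in liver. In kidney the dividing cell markers already lie below every control at 100 and 500 mg/kg. In liver replicate 3 of 500 mg/kg lies at 1.46 for these markers.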

How the data were processed

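The authors deposited 1 table of log2 expression values per probe set, made with RMA per the submitters' processing notes. RMA corrects background and equalizes array distributions, which can hide a shift shared by most genes. Its version, and whether the organs were normalized together, are not given in the sources used here. Of 31099 probe sets, 57 array controls were left out. Symbols came from the platform annotation. Where several of the 20826 probe sets with 1 symbol name a gene, the brightest on average over 49 arrays stood for it (14217 genes). Groups came from the sample titles. For each organ limma 3.58.1 in R 4.3.3 fitted 1 mean per dose group to the log2 values, with Benjamini-Hochberg adjustment over all probe sets, or over all genes at 1000 mg/kg. The comparison of 500 mg/kg with lower doses, and the slope over them, used the 1 to 500 mg/kg arrays alone. Exact permutation tests were two-sided, over arrays. The number of arrays limits the precision. The members and lists were chosen with earlier results of these data known. Genes called most alike, up to 4 called genes per list and the 3 genes just outside the threshold were named by rule. The model was tested on simulated data. Alternatives were quantile normalization, median centring, brighter probe sets only, 1 probe set or the mean of all probe sets per gene, a variance trend, array weights, a block for the replicate number, other arrays in the fit, and leaving out each array. Adjustment over all probe sets for the choosing contrast and a random block for the organs were added after the data were seen. Same-numbered arrays of an organ correlated little in their deviations, with a median of 0.06 in kidney and 0.001 in liver. For other numbers it was -0.03 in kidney and -0.004 in liver. The numbers were not taken to pair samples within an organ, although the kidney values leave this open. Kidney and liver arrays of the same dose and number had a median of 0.09, against -0.03 for other numbers, and 9 of 24 such pairs exceeded 0.1. Whether such pairs share a rat is not known, and the main comparison between organs took their arrays as separate. Promoters came from RefSeq (GRCr8), which matched 2 of the 3 genes.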

Additional observations from a re-analysis of the deposited data

Results flagged for a closer look

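The Slpi level of liver control replicate 3, at 9.69, stood apart from the other 4 controls, at 9.02 to 9.19. The 10 mg/kg kidney array of replicate 4 read 7.45 for Pacs2 1389313_at, and the other arrays of its group read 7.36 to 7.37. For Pacs2 1384895_at, replicate 1 of 100 mg/kg in kidney read 4.88 where the others read 4.62 to 4.64, and replicate 3 of 1 mg/kg in liver read 4.64 where the others read 4.15 to 4.20. These are 4 of the 44 groups of 4 or 5 arrays looked at, and chance alone marks about 1 group in 20.

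Pacs2 1389313_at ran in opposite directions at 1000 mg/kg, with every array lower than the control mean in kidney (mean difference -0.31) and every array higher in liver (0.44). The difference between the organs was not tested, because the gene was chosen from this contrast.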

How the results depend on the processing

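None of the 1050 values of tested member results under an alternative passed an adjusted limma p of 0.05, and the lowest was 0.168. All 132 alternative values of the differences at 1000 mg/kg stayed within 1 SD of the reported value, but many of them could not have done otherwise. A variance trend or a fit of the 2 groups alone leaves a difference of group means unchanged. Leaving out 1 array moves the mean of its group by less than the SD of that group. The count therefore says little about how stable the differences are. The number of members past the threshold that chose them, 3 in each organ, was less stable. It was 1 in kidney when the 2 groups were fitted alone, where Nrep and Pacs2 were lost, and in liver it was 1 in that fit, 1 with the replicate number as a block, and 1 when adjusted over all probe sets, an alternative chosen after the data were seen. Leaving out 1 array gave 1 to 3 in kidney and 1 to 2 in liver. Past the threshold in kidney were Slpi 4 times of 9 and Pacs2 3 times of 9, and in liver each of them 2 times of 9. The cause was not tested. With the replicate block the Nrep difference at 1000 mg/kg was -1.0 in kidney and -1.09 in liver. Of same-numbered kidney pairs 22 of 55 correlated above 0.1, and of liver pairs 6 of 60. What arrays of an organ share beside the number is not known. Counts of falling list genes moved by over 1.5 times with single arrays, from 0 to 4 for the TGF-beta targets in kidney, from 0 to 2 for fibroblast and for macrophage markers in kidney, and from 1 to 7 over all alternatives for the dividing cell markers in liver. Signal near background limits what Pacs2 1384895_at can show.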
